A study of Oryzias latipes with 5 samples.

Results

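Rab proteins are small GTPases that switch between a GDP-bound form and a GTP-bound form on a membrane. Exchange factors turn them on, GTPase-activating proteins turn them off, and the active form recruits effectors that tether, move or fuse vesicles. Each Rab is known for its own stretch of the route. Rab1, Rab2 and Rab6 act between the endoplasmic reticulum (ER) and the Golgi, Rab8, Rab10 and the Rab3 and Rab27 proteins on carriers to the cell surface, and Rab5, Rab4, Rab11 and Rab7 on early, recycling and late endosomes. Chondrocytes and osteoblasts secrete large amounts of collagen and other matrix proteins from the ER through the Golgi to the cell surface. The Rab genes were described here in medaka cells that express a col10a1 reporter, col10a1 encoding the alpha-1 chain of collagen X, a short-chain collagen of hypertrophic cartilage that in fish is also made by osteoblast progenitors.

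The members were the genes whose symbol is "rab" followed by a number and, optionally, letters. This took 61 of the 25689 genes in the table. By the number in the symbol, 12 are Rabs of the ER and Golgi, 12 are Rabs of post-Golgi secretion, 22 are endosomal and 13 are others, among them Rabs of cilia, autophagy and lysosome-related organelles. The remaining 2 are not Rab GTPases. One is rab3ip, an exchange factor, and the other is rab5if, whose deposited description is an uncharacterized protein and which is known in mammals as a Rab5-interacting factor. The 59 Rab genes cover 37 Rab numbers, and 15 of these numbers have more than 1 gene copy. A further 23 genes are described as a Rab in the table but carry no symbol or another one, and these were added only as an alternative.

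RNA was sequenced from cells of the medaka strain Cab at 10 days post fertilization and 30 °C. The labels call the cells chondrocytes and osteoblast progenitors. All 5 libraries carried the reporter in the homozygous state (col10a1:nlGFP +/+). The controls were 3 col10a1 wt/wt libraries, and the mutants were 2 heterozygous col10a1 wt/mut libraries from their siblings, all given as biological replicates. The labels state neither which of the col10a1 copies was mutated nor the lesion, how the cells were isolated, or how many animals went into a library. No homozygous mutant was analysed here. In bulk samples of this kind, fewer cells of a type and less RNA per cell cannot be told apart.

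Between 24791662 and 28012092 reads were recovered per library from the FPKM values, a unit of fragments scaled by the length of the gene and the size of the library. The 2 mutant libraries are called mutant 1 and mutant 2 by their replicate number. The library size implied by the FPKM values was 1.04, 1.05 and 1.08 times the recovered reads in wild type. It was 0.98 times in mutant 1 and 1.23 times in mutant 2, so FPKM of mutant 2 is low relative to its recovered reads. Mutant 2 stood apart. It had reads for 12334 genes, against 19397 to 21134 in the 4 other libraries, and its Pearson correlation with them across genes, on the log2(FPKM + 1) scale, was 0.80 to 0.82, against 0.95 to 0.97 among the others. The main Rab genes and classes are therefore given by mutant library. FPKM of col10a1a was 5384, 7272 and 6781 in wild type and 4055 and 4135 in the mutants. Its log2 difference was -0.65 (SE 0.29) and missed the threshold (limma, adjusted p = 0.399). The other copy, col10a1b, gave 374, 657 and 461 FPKM, then 301 and 580, with mutant 2 inside the wild-type range (-0.21, and up to 0.26 when 1 library was left out). The 9 reporter and osteoblast markers summed to 18850, 21698 and 21172 FPKM in wild type and to 16251 and 15828 in the mutants, both below every wild type. One of them, alpl, was at 12.5 to 14.2 FPKM in wild type, 9.61 in mutant 1 and 0.0484 in mutant 2. The 9 markers did not move together, with 3 positive and 6 negative log2 differences. Their median log2 ratio to the wild-type mean was -0.44 in mutant 1 and 0.05 in mutant 2. The 8 chondrocyte markers summed to 267 to 355 FPKM in wild type and to 114 and 150 in the mutants. All 8 were 2-fold or more below the wild-type mean in mutant 1, beside 1.15% of all genes. In mutant 2, 4 were, beside 37.2% of all genes. Their median log2 ratio was -1.27 in mutant 1 and -0.98 in mutant 2. The part of these cells in the Rab values was not tested. None of these 17 genes was at 0 in any library.

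Rab10, which carries secretory vesicles from the trans-Golgi and endosomes to the cell surface, gave the highest Rab level. Rab10 FPKM was 222, 218 and 194 in the wild types. Rab5c, a copy of the early-endosome Rab5, came next with 160, 136 and 152 FPKM. The wild-type values of these genes did not overlap each other or those of any other Rab. They were followed by rab1ab, a Rab1 of ER-to-Golgi transport, at 75.1 ± 5.17 FPKM (SD, n = 3) and by rab18b, a Rab18 of the ER and lipid droplets, at 72.7 ± 10.3 FPKM, and this pair did not differ beyond its spread. The recycling-endosome copy rab11ba followed at 55.7 ± 6.65 FPKM. The next 4 genes, rab1aa (36.1 ± 5.86), rab18a (33.3 ± 4.93), RAB31 (32.1 ± 4.49) and rab5ab (30.0 ± 6.98 FPKM), overlapped in their wild-type values.

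**Figure D1:**
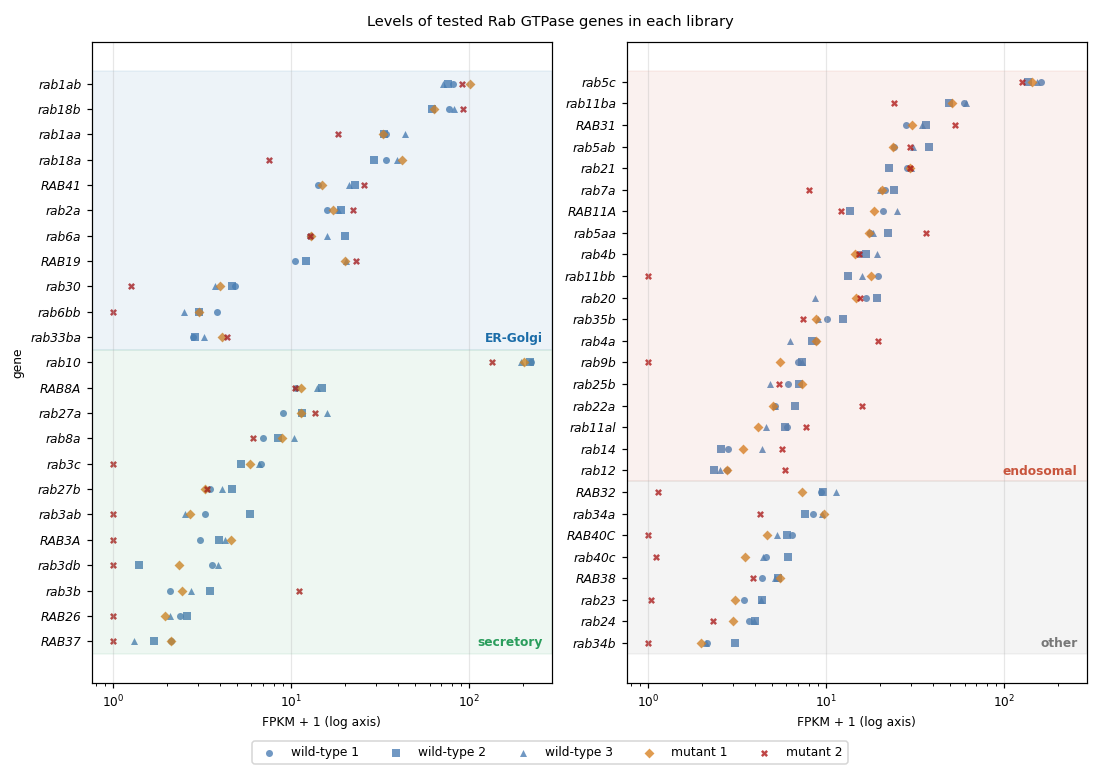
FPKM + 1 of the 50 tested Rab genes in each of the 5 libraries, on a log axis, by class and in order of wild-type level. Rab10 and rab5c lie above all other Rab genes in the wild types, and the mutant 2 points of the 11 genes with no read in that library lie at 1.

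The top 3 genes held 42.4% of the wild-type FPKM of all Rab genes and the top 10 held 70.2%. By mean wild-type FPKM, 2 Rab genes reached 100, 20 lay between 10 and 100, 27 between 1 and 10, and 10 lay below 1. The order depended on gene length, which ran from 606 bp to 6970 bp over the members. The rab10 model is 606 bp long (chromosome 24, 17726561 to 17740708, minus strand) and the rab5c model 657 bp (chromosome 8, 6162408 to 6166820, minus strand). The rab1ab model is 4653 bp long (chromosome 15, 3859534 to 3874605, plus strand). By reads summed over the wild types, rab1ab led with 29765, followed by rab1aa with 12541 and rab18b with 11347, while rab10 had 10900 and rab5c 8358. Coordinates and lengths are those of the deposited table, and no source used here names its genome build.

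The test compared mutant with wild type on log2(FPKM + 1) by limma over the 13680 genes that reached 1 FPKM in 2 or more libraries, with Benjamini-Hochberg adjustment and a threshold of 0.05. Of the 61 members, 52 passed this filter, 50 of them Rab genes. The 9 not tested were rab33a, rab15, RAB9A, rab25a, rab38b, RAB39B, rab38c, RAB29 and rab42a, all with a wild-type mean below 1 FPKM, and RAB9A and rab25a had no read in any library. RAB39B was highest in mutant 2, at 1.84 FPKM (199 reads), against 0.338 to 0.758 FPKM in wild type and 0.483 in mutant 1. RAB39B and rab38c overlap on opposite strands, so the reads of both are uncertain.

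No Rab gene passed the test, where 0.00731% of all tested genes did. By limma at an unadjusted p under 0.05, 1 Rab gene, RAB32, was lower (7.60% of all genes) and none was higher (3.21% of all genes). The voom test on the recovered reads called none and had none at that unadjusted p, beside 11.1% of all genes at the latter in either direction. The fitted difference was positive for 18 and negative for 32 of the 50 tested Rab genes, with a median of -0.27 on the log2 scale, beside -0.31 over all genes. Both mutants lay below every wild type for 12 Rab genes, or 24.0% of them, beside 26.0% of all genes, and above every wild type for 3, beside 8.33%. These shares are close to those of the table as a whole.

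The mutant libraries differed from each other more than either group value shows. In mutant 1, no Rab gene was 2-fold or more from its wild-type mean in either direction, where 1.70% of all genes were that far above and 1.15% that far below. In mutant 2, 4 Rab genes were 2-fold or more above and 18 were 2-fold or more below, of the 50 tested, where 11.6% and 37.2% of all genes were. The median size of a Rab gene's log2 ratio to the wild-type mean was 0.20 in mutant 1 and 0.80 in mutant 2, beside 0.28 and 0.97 over all genes, and it was 0.15 to 0.16 in the wild types themselves. In mutant 1, 25 of the 50 Rab genes (50%) lay within the wild-type range, beside 43.4% of all genes, and in mutant 2, 5 did (10%), beside 14.0% of all genes. Without mutant 2, no Rab gene passed at an adjusted or an unadjusted p under 0.05 (7.08% of all genes did at the latter), the smallest limma adjusted p was 0.783, and the median was -0.13 beside -0.16 over all genes. Without mutant 1, 25 of 49 Rab genes were called, 20 lower and 5 higher. This is 51.0% of them, beside 54.3% of all genes, and a single mutant library stands for its group there.

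**Figure D2:**
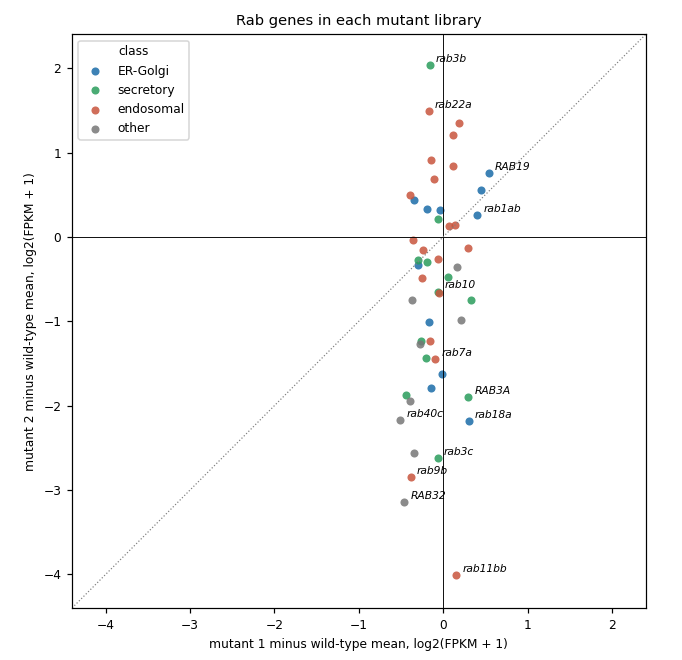
Log2 ratio of each tested Rab gene to its wild-type mean, with mutant 1 on the horizontal and mutant 2 on the vertical axis, coloured by class. The points form a narrow vertical band, with no gene at a 2-fold change in mutant 1 and a spread from -4.01 for rab11bb to 2.03 for rab3b in mutant 2.

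A group of 11 tested Rab genes had no read in mutant 2, which is 22.0% of the tested Rab genes and 23.6% of all tested genes. They were rab6bb, rab11bb, rab9b, RAB40C, rab34b, rab3c, rab3ab, RAB3A, rab3db, RAB26 and RAB37. Of the 27 Rab genes at 5 FPKM or more in each of the 4 other libraries, 1, rab11bb, had no read, beside 6.26% of such genes in the whole table. The share without a read differed by level. It was 35.7% of the tested Rab genes with a wild-type mean under 10 FPKM and 4.55% of the more abundant ones, beside 33.8% and 4.43% of all genes. The fitted differences of these 11 genes depend on the pseudocount and are no bounds.

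Summed over their genes, the ER-Golgi Rabs gave 281, 275 and 311 FPKM in wild type and 305 and 289 in the mutants. The secretory Rabs gave 264, 270 and 251 FPKM, then 249 and 174. The endosomal Rabs gave 443, 427 and 443 FPKM, then 409 and 400. The mutant sums overlapped the wild types for the ER-Golgi Rabs and lay below them for the other classes. The place of mutant 2 in these sums may depend on its larger implied library size. Sums scaled to the recovered reads were not made. For the secretory Rabs, mutant 1 lay just under the lowest wild type, and mutant 2 well below it.

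**Figure D3:**
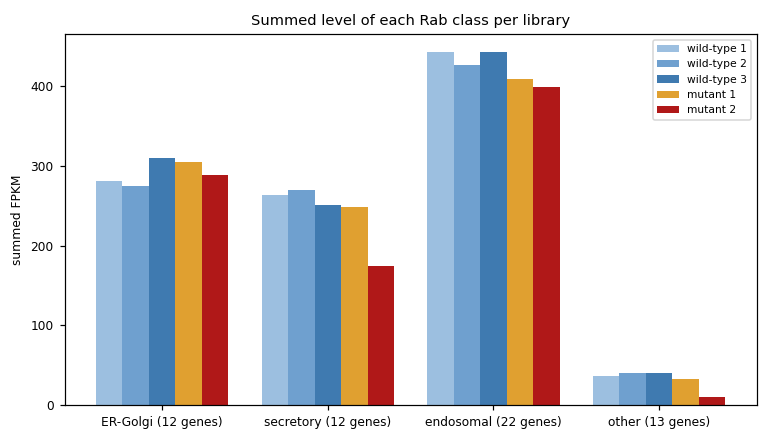
Summed FPKM of the ER-Golgi, secretory, endosomal and other Rab genes in each of the 5 libraries. The ER-Golgi sums of wild type and mutant overlap, and the secretory sum of mutant 2, at 174 FPKM, is the lowest of its class.

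As a share of all Rab FPKM, the ER-Golgi class held 27.4%, 27.1% and 29.7% in wild type and 30.6% and 33.1% in the mutants. The secretory class held 25.8%, 26.7% and 24.0%, then 25.0% and 19.9%, and the endosomal class 43.2%, 42.1% and 42.4%, then 41.1% and 45.8%. Only the ER-Golgi share was above every wild type in both mutants. The secretory share was within the wild-type range in mutant 1 and below it in mutant 2, and the endosomal share was below that range in mutant 1 and above it in mutant 2.

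By gene, the median log2 difference was 0.05 for the 11 tested ER-Golgi Rabs (6 positive, 5 negative), -0.32 for the 12 secretory Rabs (2 positive, 10 negative) and 0.05 for the 19 tested endosomal Rabs (10 positive, 9 negative). In mutant 1 the class medians of the log2 ratios were -0.04, -0.11 and -0.09, and in mutant 2 they were 0.26, -0.70 and -0.04, in the same order. Leaving out 1 library gave -0.16 to 0.26 for the ER-Golgi median, -0.65 to -0.11 for the secretory and -0.11 to 0.11 for the endosomal median, so the signs of the first and last were not stable. The 23 ER-Golgi and secretory Rabs had a median of -0.29, which lay 0.33 below that of the endosomal Rabs on the log2 scale. Per library, the median log2 ratio of the ER-Golgi and secretory side minus that of the endosomal side was -0.15, -0.09 and 0.11 in wild type, 0.03 in mutant 1 and -0.44 in mutant 2. Mutant 1 thus lay within the wild types and mutant 2 below them. Without mutant 2 the difference was 0.031, so its sign rested on that library. From the sums of FPKM it was -0.0080, with the 2 mutants on opposite sides of the wild types. The ratio of summed ER-Golgi and secretory FPKM to endosomal FPKM was 1.23, 1.28 and 1.27 in wild type. It was 1.35 in mutant 1, above every wild type, and 1.16 in mutant 2, below every wild type. No shift shared by both mutants was thus seen on that measure. The gap between the ER-Golgi and the post-Golgi secretory medians was seen in mutant 2 and was small in mutant 1. In mutant 2, 50% of the tested secretory Rabs and 9.09% of the tested ER-Golgi Rabs had no read. That share differed by level over all genes, and the part of level in the gap between these medians was not tested. With the genes described as a Rab added, the ER-Golgi median was -0.13 and the secretory median -0.24.

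**Figure D4:**
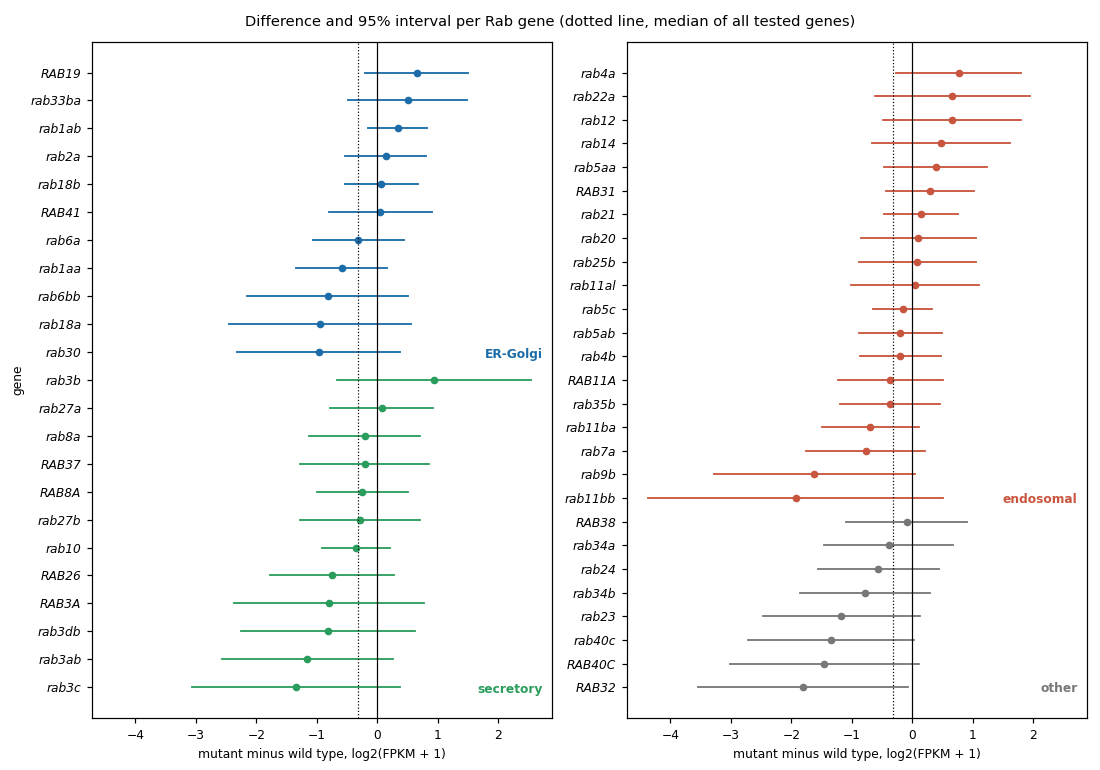
Log2 difference, mutant minus wild type, of each tested Rab gene with its 95% interval, ordered by class. All intervals but that of RAB32 include 0, and the 8 genes of the other class all lie below 0. The widest interval is that of rab11bb, which had no read in mutant 2.

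Among the ER-Golgi Rabs, rab1ab FPKM was 80.4, 74.9 and 70.0 in wild type and 99.8 and 90.2 in the mutants. Both mutants were above every wild type, and the log2 difference was 0.34 (SE 0.21, 95% interval -0.16 to 0.83), which missed the threshold by limma (adjusted p = 0.422). Without mutant 2 it was 0.41. The other Rab1 copy, rab1aa (chromosome 1, 580882 to 586981, minus strand), gave 33.0, 32.4 and 42.9 FPKM, then 31.8 and 17.3. Both mutants were below every wild type, mutant 1 by little (log2 difference -0.59, SE 0.32, limma adjusted p = 0.401; -0.17 without mutant 2). Rab1ab therefore made up 70.9%, 69.8% and 62.0% of Rab1 FPKM in wild type and 75.8% and 83.9% in the mutants. The Rab1 sum of both copies was 113, 107 and 113 FPKM, then 132 and 108, so the sum was above every wild type in mutant 1 and within their range in mutant 2.

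Rab18b FPKM (chromosome 17, 15124330 to 15128051, plus strand) was 76.1, 61.1 and 80.9 in wild type and 62.9 and 91.2 in the mutants, which lay on either side of its wild-type mean. Its copy rab18a gave 33.2, 28.4 and 38.2 FPKM, then 41.0 and 6.49. Mutant 1 was the highest of the 5 for rab18a and mutant 2 the lowest, and the log2 difference of -0.94 (SE 0.64, limma adjusted p = 0.448) became 0.30 without mutant 2. For rab18b the difference of 0.07 became -0.20. The sum of the copies was 109, 89.5 and 119 FPKM, then 104 and 97.7, all mutant values within the wild-type range.

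Rab2a, which acts on the membranes between ER and Golgi, gave 15.0, 18.04 and 17.4 FPKM in wild type and 16.3 and 21.2 in the mutants (log2 difference 0.14). The Golgi Rab rab6a gave 11.8, 19.0 and 15.0, then 11.9 and 11.7 FPKM (-0.32). RAB41, described in the table as a Rab-6B, gave 13.3, 22.0 and 20.0, then 14.0 and 24.9 FPKM (0.05, or -0.35 without mutant 2). For all 3 genes mutant 1 lay within the wild-type range and mutant 2 outside it, just below for rab6a. RAB19, a Golgi-associated Rab, gave 9.49, 11.2 and 19.5 FPKM, then 19.0 and 22.3, the largest positive difference in the class at 0.65 (SE 0.37, limma adjusted p = 0.403). Its highest wild type lay between the mutants. Rab33ba, a Golgi Rab that in mammals also acts with the autophagy protein Atg16, was low but above every wild type in both mutants, at 1.81, 1.90 and 2.25, then 3.08 and 3.37 FPKM (0.50, or 0.45 without mutant 2). This holds for rab33ba only. A gene described as Rab-33B under the symbol zgc:101559 gave 6.12, 3.85 and 8.49 FPKM, then 5.497 and 7.07 (0.07). Both of its mutant values lay within the wild-type range. Another gene described as Rab-33B, without a symbol, lay within that range in mutant 1 and had no read in mutant 2 (-0.62). Rab30, a Golgi Rab, gave 3.87, 3.68 and 2.76 FPKM, then 2.98 and 0.271 (-0.97).

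Among the secretory Rabs, rab10 FPKM was 203 in mutant 1, within its wild-type range, and 134 in mutant 2, below it. The log2 difference was -0.35 (SE 0.24, limma adjusted p = 0.451) and -0.06 without mutant 2. Rab8 proteins bring vesicles to the cell surface and to cilia. RAB8A gave 9.62, 13.9 and 13.0 FPKM, then 10.4 and 9.60, and the second copy, rab8a, 5.99, 7.46 and 9.42, then 7.88 and 5.12. The log2 differences were -0.24 and -0.21, the latter 0.06 without mutant 2, and mutant 2 had the lowest value for both copies.

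Rab27 proteins dock secretory granules and melanosomes. Rab27a gave 7.99, 10.5 and 15.0 FPKM in wild type and 10.4 and 12.7 in the mutants, inside the wild-type range (log2 difference 0.08, or -0.06 without mutant 2). Rab27b gave 2.52, 3.64 and 3.10, then 2.30 and 2.36 FPKM (-0.29), with both mutants slightly below. Neither gene was without reads in any library. A further gene described as Rab-27B, which carries no symbol, gave 3.05, 3.92 and 4.54, then 3.15 and 7.97 FPKM.

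The Rab3 proteins act in regulated exocytosis and are best known from synaptic vesicles. Their genes with a Rab3 symbol were low in the wild types. Rab3c gave 5.77, 4.22 and 5.59 FPKM, then 4.89 and 0 (log2 difference -1.34). Rab3ab gave 2.31, 4.90 and 1.54, then 1.72 and 0 (-1.16). RAB3A gave 2.09, 2.93 and 3.27, then 3.58 and 0 (-0.80). Rab3db also had no read in mutant 2, so 4 of the 5 Rab3 copies with a symbol were not detected there. The fifth, rab3b, was at 1.097, 2.49 and 1.76 FPKM in wild type, 1.44 in mutant 1 and 10.1 in mutant 2 (0.94, or -0.16 without that library), where it made up 100% of the FPKM of these copies. In mutant 1 the share of rab3b was 11.1%, within the 7.90% to 16.6% of the wild types. The 8 markers of neurons and neuroendocrine cells summed to 31.4 to 46.9 FPKM in wild type, 42.9 in mutant 1 and 12.5 in mutant 2. There, 6 of the 8 had no read (elavl3, elavl4, stmn2b, sv2a, syn1 and syt1a), against 1 in each other library. The 8 exocrine pancreas markers summed to 310 to 460 FPKM in wild type, 952 in mutant 1 and 21.5 in mutant 2, where 6 had no read. The part of these cells in the Rab3 values was not tested.

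The 7 early endosomal Rabs had a median absolute log2 ratio of 0.26 in mutant 2, beside 0.80 over all tested Rabs and 0.39 over the Rabs that average 10 FPKM or more in wild type, as 6 of the 7 do. Rab5 drives fusion of incoming vesicles with early endosomes. Rab5c FPKM was 143 in mutant 1 and 124 in mutant 2, the second below every wild type (log2 difference -0.16, SE 0.21, limma adjusted p = 0.678). Rab5ab gave 23.2, 37.1 and 29.6 FPKM, then 22.8 and 28.7 (-0.20), and rab5aa 16.7, 21.3 and 17.4, then 16.6 and 35.5 (0.39). The 3 copies summed to 200, 194 and 199 FPKM in wild type and to 182 and 189 in the mutants, both below every wild type. The margin of mutant 2 is small and may depend on its implied library size. Rab21, which is known for the uptake of integrins, gave 27.4, 21.6 and 29.2 FPKM, then 28.6 and 28.7 (0.14), all within the wild-type range. RAB31, of the Rab5-like group between trans-Golgi and endosomes, gave 27.0, 35.4 and 33.8, then 29.4 and 51.9 FPKM (0.29, or -0.11 without mutant 2). Rab22a, of the same group, gave 4.21, 5.73 and 4.19, then 4.04 and 15.0 FPKM (0.66, or -0.17 without mutant 2). Over the 7 early endosomal Rabs, 5 differences were positive and 2 negative, with a median of 0.14.

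Rab11 of the recycling endosome has several copies here. Rab11ba gave 58.9, 48.1 and 60.2 FPKM, then 49.7 and 23.1 (log2 difference -0.69, SE 0.35, limma adjusted p = 0.399; -0.16 without mutant 2). Rab11bb (chromosome 17, 21229039 to 21234019, plus strand) gave 18.6, 12.4 and 15.0 FPKM, then 17.0 and 0. The first mutant value was inside the wild-type range, and in mutant 2 the gene was not detected, with 3 reads corresponding to 0.0850 FPKM. The fitted difference was -1.93 (95% interval -4.37 to 0.52, limma adjusted p = 0.399) and was 0.16 without mutant 2. The 4 Rab11 genes with a symbol summed to 103, 78.0 and 103 FPKM in wild type, 87.4 in mutant 1 and 40.9 in mutant 2. The share of rab11ba in this sum, at 56.4% to 61.7%, differed little among the 5 libraries. A gene without a symbol that is described as Rab-11B gave 11.7, 5.61 and 7.90 FPKM, then 11.1 and 12.1. It is not in the sum, so sum and share hold only for the copies with a symbol.

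Rab4 returns cargo quickly from early endosomes to the surface. Rab4a gave 7.76, 7.38 and 5.26 FPKM, then 7.77 and 18.6, so that mutant 1 barely exceeded the highest wild type and the log2 difference of 0.77 (SE 0.44, limma adjusted p = 0.406) came from mutant 2. Rab4b gave 14.4, 15.8 and 18.3, then 13.5 and 14.3 FPKM (-0.20), both mutants below by a small margin. Of the 9 tested recycling Rabs, 4 differences were positive and 5 negative.

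The late endosomal Rabs differed from each other in mutant 2. Rab7a, which takes late endosomes to lysosomes, gave 20.6, 23.2 and 19.2 FPKM in wild type, 19.5 in mutant 1 and 7.04 in mutant 2 (log2 difference -0.77, SE 0.42, limma adjusted p = 0.400). Rab9b, whose family returns receptors from late endosomes to the Golgi, gave 5.98, 6.37 and 6.31, then 4.54 and 0 FPKM (-1.62, or -0.38 without mutant 2). This holds for the copy with a symbol only. A gene without a symbol that is described as Rab-9A gave 19.6, 27.7 and 20.9, then 17.4 and 35.4 FPKM. Rab12, a Rab of the recycling-to-lysosome route, gave 1.78, 1.35 and 1.53, then 1.76 and 4.88 FPKM (0.66, or 0.12 without mutant 2). Mutant 1 lay within the wild types for rab7a and rab12 and below them for rab9b.

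The Rabs outside both routes lay lowest of the classes, with all 8 tested genes negative and a median of -0.97. Their summed FPKM was 36.2, 40.4 and 40.1 in wild type, 33.0 in mutant 1 and 9.59 in mutant 2. The class median of the log2 ratios was -0.36 in mutant 1 and -1.61 in mutant 2, and 6 of the 8 genes were below every wild type in both mutants, beside 26.0% of all tested genes and 25.6% of those with a wild-type mean under 10 FPKM. With the genes described as a Rab added, the median was -0.56 over 11 tested genes, and one of these, described as Rab-44, was positive at 0.28. None of the 8 tested genes with a symbol has a wild-type mean of 10 FPKM or more. For all genes under that level the median fitted difference was -0.41, with 68.1% negative.

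RAB32 (chromosome 24, 8581452 to 8601119, minus strand), a Rab of melanosomes and other lysosome-related organelles that also binds mitochondria, had the smallest unadjusted p of the Rab genes. It gave 8.37, 8.65 and 10.3 FPKM in wild type, 6.31 in mutant 1 and 0.140 in mutant 2. Both mutants lay below every wild type, with a log2 difference of -1.80 (SE 0.74, 95% interval -3.54 to -0.07, limma adjusted p = 0.399) and of -0.46 without mutant 2. RAB38, its close relative in melanosome biogenesis, gave 3.36, 4.38 and 4.14 FPKM, then 4.54 and 2.87, on either side of the wild-type range (-0.09, or 0.17 without mutant 2). The 9 pigment cell markers summed to 21.1, 54.5 and 23.0 FPKM in wild type and to 36.2 and 16.2 in the mutants, and 6 of them had no read in mutant 2 (TYR, oca2, pmela, pmelb, slc45a2 and tyrp1b). Their sum in mutant 1 was within the wild-type range, where RAB32 was below it. The 8 white blood cell markers summed to 25.4 to 32.5 FPKM in wild type and to 18.7 and 6.75 in the mutants, with 6 at 0 in mutant 2. The part of these cells in the RAB32 values was not tested.

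Rab40 proteins join a ubiquitin ligase. RAB40C gave 5.41, 5.05 and 4.31 FPKM, then 3.65 and 0 (log2 difference -1.45), and rab40c 3.63, 5.13 and 3.42, then 2.52 and 0.108 (-1.34, or -0.51 without mutant 2). The Rab40 sum was 9.03, 10.2 and 7.73 FPKM in wild type, 6.17 in mutant 1 and 0.108 in mutant 2, and every mutant value of either copy was below every wild type. Rab23, which restrains Hedgehog signalling at the cilium in mice, gave 2.48, 3.36 and 3.31, then 2.07 and 0.0426 FPKM (-1.17). Rab24, of autophagy, gave 2.68, 3.02 and 2.97, then 2.01 and 1.31 FPKM (-0.56). Rab34a, of the cilium and lysosome positioning, gave 7.41, 6.66 and 8.48, then 8.80 and 3.28 FPKM (-0.39, or 0.21 without mutant 2). Apart from rab34a, these genes were below every wild type in both mutants.

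Copies of one Rab number lay on the same side of wild type in some families and not in others. The Rab1 and Rab18 copies lay on opposite sides in mutant 2, as did rab4a and rab4b, and rab3b and its 4 relatives, whereas both Rab40 copies lay below. The share of rab18b in Rab18 FPKM was 69.6%, 68.3% and 67.9% in wild type, 60.5% in mutant 1 and 93.4% in mutant 2. The share of rab4a in Rab4 was 35.1%, 31.8% and 22.4%, then 36.6% and 56.6%. Copies with similar sequence can share reads, so a shift between copies is uncertain. How such reads were counted was not examined, so family sums may be affected too.

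**Figure D5:**
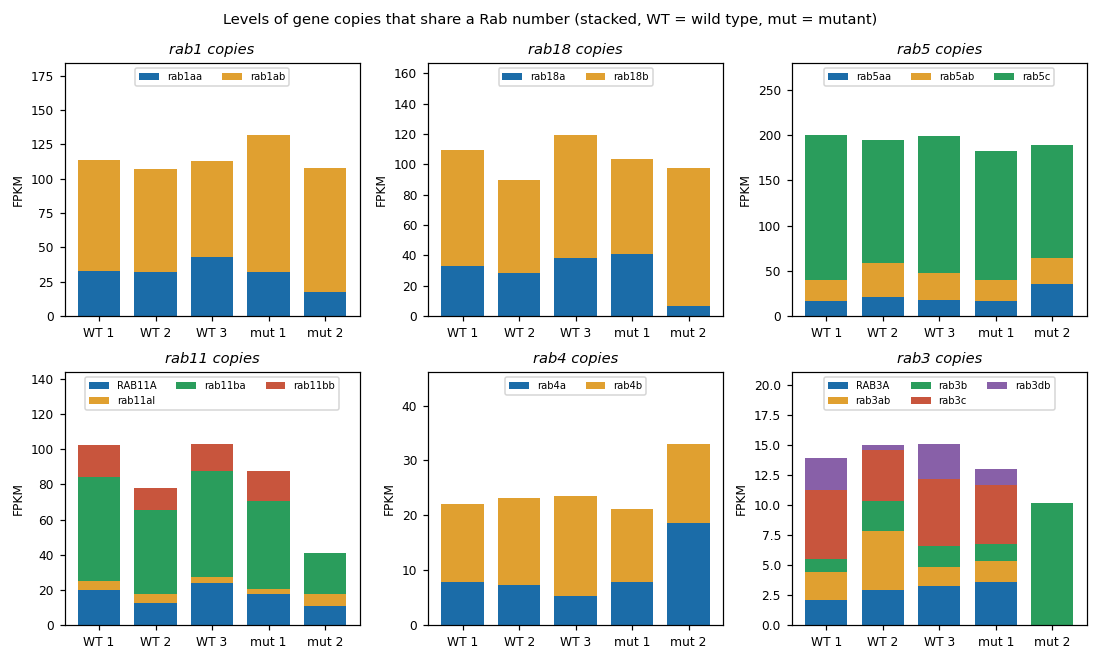
Stacked FPKM of the gene copies of Rab1, Rab18, Rab5, Rab11, Rab4 and Rab3 in each of the 5 libraries. In mutant 2 rab18b makes up 93.4%, rab1ab 83.9% and rab3b 100% of its stack, and the Rab11 stack of 40.9 FPKM is the lowest of the 5. Only copies with a Rab symbol are stacked. This leaves out a gene described as Rab-3D, at 30.1 FPKM in mutant 2, and a gene described as Rab-11B, at 12.1 FPKM.

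The symbol pattern also took rab5if, which is not a Rab and gave 14.6, 17.3 and 20.8 FPKM in wild type and 23.6 and 59.9 in the mutants. Both mutants were above every wild type (log2 difference 1.07, SE 0.41, limma adjusted p = 0.399), and the difference was 0.42 without mutant 2. Rab3ip, an exchange factor that turns on Rab8, gave 3.96, 5.09 and 3.24, then 4.20 and 2.73 FPKM (-0.20, or 0.04 without mutant 2), the second below every wild type.

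Genes that load, switch and read the Rabs were taken from lists by role. No gene of these lists, 124 in all among those tested, passed the limma test at an adjusted p under 0.05, and by voom none did either. At an unadjusted p under 0.05, 1 gene was higher and 7 were lower by limma, and 5 were higher and 8 lower by voom. This is 6.45% and 10.5% of the 124, beside 10.8% and 11.1% of all genes. Of 7 tested genes for prenylation and membrane recycling, 2 were positive and 5 negative, with a median of -0.04 (median log2 ratio -0.13 in mutant 1 and 0.06 in mutant 2). Chm, which presents new Rabs for prenylation, gave 20.0, 18.6 and 16.8 FPKM in wild type and 16.2 and 2.11 in the mutants (log2 difference -1.41, or -0.18 without mutant 2). Rabif, a chaperone of nucleotide-free Rabs, gave 4.38, 3.54 and 2.90, then 6.73 and 12.0 FPKM (1.14, or 0.76 without mutant 2), with both mutants above every wild type.

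The 28 tested Rab exchange factors had a median of -0.18 (-0.20 in mutant 1 and -0.26 in mutant 2), with 11 positive and 17 negative. The lowest p belonged to dennd6b, an exchange factor of the DENN family, at 17.9, 19.2 and 16.1 FPKM in wild type, 13.8 in mutant 1 and 0.101 in mutant 2 (-2.21, or -0.33 without mutant 2). Dennd2b, of the same family, gave 6.504, 8.37 and 7.76, then 4.05 and 4.35 FPKM, so that both mutants were similarly far below every wild type (-0.71, SE 0.37). Sbf1 and dennd1a had positive differences of 0.80 and 0.76, which were -0.07 and 0.03 without mutant 2. Of 12 tested subunits of TRAPP, the complex that turns on Rab1 and Rab11, 5 were positive and 7 negative, with a median of -0.17 (-0.06 in mutant 1 and -0.20 in mutant 2). At an unadjusted p under 0.05, none of the 12 was called by limma. By voom 3 were higher and none was lower, or 25.0% of them, beside 11.1% of all genes in either direction. The gene with the symbol trappc2 (0.90), counted here, is described as a Rab-9A. Trappc6b gave 28.2, 27.9 and 26.5 FPKM, then 31.9 and 53.0 (0.56, or 0.21 without mutant 2), both mutants above every wild type. The list of GTPase-activating proteins took genes by symbol, among them those with a tbc1d number, and whether each is active was not examined. Of its 29 tested genes, 12 were positive and 17 negative, with a median of -0.27 (-0.21 in mutant 1 and -0.32 in mutant 2). The smallest p-values were those of tbc1d2b (-1.53) and TBC1D13 (-0.94) on the negative side, and of tbc1d23 (0.88) and tbc1d1 (1.04) on the positive side. The last 2 were -0.27 and -0.33 without mutant 2.

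Effectors of the ER-Golgi and secretory Rabs had a median of -0.27 over 18 tested genes, 7 positive and 11 negative, and those of the endosomal Rabs a median of -0.47 over 31, 9 positive and 22 negative. The former had a median log2 ratio of -0.15 in mutant 1 and -0.59 in mutant 2, and the latter of -0.35 and -0.82, beside -0.16 and -0.49 over all genes. At an unadjusted limma p under 0.05, 5 of the endosomal effectors were lower and none was higher, where 7.60% and 3.21% of all genes were. By voom 4 were lower and none was higher, or 12.9% of them, beside 11.1% of all genes in either direction. Among the 5 were rufy1 (-1.76), a Rab4 effector, and vps16 (-2.24), a subunit of the tethers HOPS and CORVET that work with Rab7 and Rab5. Vps16 FPKM was 11.2, 12.7 and 17.8 in wild type, 8.37 in mutant 1 and 0.0195 in mutant 2. Both genes were below every wild type in both mutants, with differences of -0.68 and -0.64 without mutant 2. On the positive side, RILPL1 (0.37) and plekhm1 (0.54) were -0.09 and -0.36 without mutant 2. These medians stand beside -0.31 over all genes, and their difference from each other was not tested. The endosomal list took genes by symbol and holds an appl2 gene described as a gamma-tubulin complex component (-1.04). Tbc1d2b, among the 5 lower genes, also stands in the list of GTPase-activating proteins. Rilpl2 (-0.92), also among the 5, and RILPL1 are described as RILP-like proteins, and which Rabs they bind was not examined. The list of ER-Golgi and secretory effectors holds p4hb, which is no effector and encodes protein disulfide isomerase, a subunit of the collagen prolyl hydroxylase. It gave 9.65, 8.41 and 7.10 FPKM in wild type and 14.0 and 12.2 in the mutants (0.59, or 0.69 without mutant 2), both above every wild type. Whether each other gene of this list is a Rab effector was not examined. Of these, mlpha and exoc6b had the smallest p-values on the negative side (-1.73 and -1.49), and BICD2 (0.58) was -0.08 without mutant 2.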

How the data were processed

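The authors deposited FPKM per gene for 5 libraries, named in the table header, with symbols, coordinates and gene lengths. The labels' protocols name a Direct-zol RNA MicroPrep kit for the RNA and a SMARTER mRNA-Seq kit for the libraries. The submitters' processing notes list the aligner HISAT2 2.0.5 and the counter featureCounts 1.5.0-p3. No source used here names the genome build, the annotation or whether counting used strand, so overlapping and antisense genes may share reads. The table gave whole reads for 100% of values at a tolerance of 0.02 reads, and these reads were used only for depth, floors of 3 reads and a voom fit as an alternative. All 5 libraries entered a limma 3.58.1 fit (R 4.3.3) on log2(FPKM + 1) with a mean-variance trend, 3 wild types against 2 mutants, over the 13680 genes that reached 1 FPKM in 2 or more libraries. P-values were adjusted by Benjamini-Hochberg over all of them, with a threshold of 0.05. A fold change on this scale understates the change of low genes. The labels call the samples biological replicates, with no animal named, so p-values measure the spread between these libraries. The fit was also run on simulated data in which all libraries had the same noise setting. No sparse library was simulated, so that run does not show how the fit handles a library such as mutant 2. Ratios per library are log2 against the wild-type mean.

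Members, classes and lists were chosen with earlier results of these data known, so no p over a list is given. Genes were named by rank of level and p within each class, plus members without a read in mutant 2. Alternatives were a pseudocount of 0.1, no filter, a filter at 5 FPKM, median-of-ratios and quantile scaling, no trend, array weights, the replicate block, other class maps and leaving out each library. Genes described as a Rab but outside the symbol rule, and members with a read in every library, were added after seeing the data.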

Additional observations from a re-analysis of the deposited data

How the results depend on the processing

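With 2 mutant libraries that differ this much, the test could show only large changes shared by both, and low Rab genes are limited by the sparse library. Among all genes 1 passed the threshold, 145 did with the replicate block and 1 to 7239 when 1 library was left out. No Rab gene passed under any alternative fit or with the replicate block, and 0 to 25 did when 1 library was left out, the 25 without mutant 1. Deviations of same-numbered libraries from their group means gave a Pearson r of 0.058 for number 1 and -0.012 for number 2. With 2 mutant libraries the mutant deviations are mirror images of each other. These values therefore cannot decide whether the numbers pair the samples, and the labels do not say.

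The difference of class medians, ER-Golgi and secretory minus endosomal, was -0.33. It was -0.049 with the filter at 5 FPKM, -0.16 over members with a read in every library (added after seeing the data), -0.17 under quantile normalization, -0.11 without rab10, rab12, rab14 and rab18, and -0.0080 from summed FPKM. Leaving out 1 library gave -0.50 to 0.031. The causes were not tested. Quantile normalization moved the median of all genes from -0.31 to 0.01 and that of the Rab genes from -0.27 to -0.09. It turned RAB38 to 0.28, rab3ip to 0.17 and rab8a to 0.0020.

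Of 809 values of 59 named genes under the alternatives, 742 kept direction and side of the threshold, 41 passed it (all without mutant 1) and 26 reversed. Leaving out 1 library at a time gave -0.078 to 1.23 for BICD2, -0.11 to 0.69 for RAB31, -0.35 to 0.17 for RAB38, -0.35 to 0.44 for RAB41, -0.095 to 0.84 for RILPL1, -0.68 to 0.26 for col10a1b, -0.36 to 1.44 for plekhm1, -4.01 to 0.16 for rab11bb, -2.18 to 0.30 for rab18a, -0.20 to 0.33 for rab18b and -0.17 to 1.496 for rab22a. It gave -0.12 to 0.29 for rab27a, -0.99 to 0.21 for rab34a, -0.16 to 2.03 for rab3b, -0.44 to 0.045 for rab3ip, -0.48 to 0.062 for rab8a, -0.073 to 1.68 for sbf1, -0.33 to 2.42 for tbc1d1 and -0.27 to 2.03 for tbc1d23.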

Other observations

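Among the 23 genes described as a Rab but outside the symbol rule, a Rab-3D gene without a symbol gave 26.9, 13.1 and 25.0 FPKM in wild type and 27.1 and 30.1 in the mutants, a level above that of every Rab3 gene with a symbol. A second gene described as rab7 gave 24.3, 26.6 and 27.4, then 24.0 and 6.83 FPKM, so that it was low in mutant 2 as rab7a was. A gene with the symbol trappc2 is described as a Rab-9A and gave 9.59, 7.51 and 6.66, then 9.53 and 24.9 FPKM. With these genes added, summed Rab FPKM was 1184, 1171 and 1209 in wild type and 1150 and 1064 in the mutants, beside 1025, 1012 and 1044, then 996 and 873, for the genes with a Rab symbol.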
